A study of Mus musculus with 4 samples.

Results

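The genes described here are the forkhead transcription factors Foxo1 and Foxo3 and 5 genes tied to their activity, Irs2, Depp1, Txnip, Pdk4 and Angptl4. They were found by symbol in the feature tables, where Depp1 has the name 8430408G22Rik, and they are 7 of the 31053 genes counted. The level of each was measured in every library across classes of cells that were gated on marker genes. They were chosen by measured values, their levels per library in CSD and HC, so the members' own differences are given as a description, with no p-value and no count of calls.

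The study used single-cell RNA sequencing to ask how chronic social defeat changes the cells of the brain vasculature. Male wild-type (WT) C57BL/6 mice, 12 to 14 weeks old, either lived beside an aggressive CD-1 male for 14 days with 5 minutes of direct contact a day (CSD), or spent those 14 days next to a CD-1 mouse behind a partition that was never lifted (home cage, HC). Brain cells were released with collagenase and enriched with beads that carry an antibody to CD31, a surface protein of endothelial cells. Each of the 4 libraries (CSD 1, CSD 2, HC 1 and HC 2) pooled the cells of 4 mice, so that n was 2 libraries per condition and differences between mice could not be seen.

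FOXO factors are held in the cytoplasm when insulin or growth factors activate PI3K and AKT, which phosphorylate them, and they enter the nucleus and activate their target genes when that signal weakens. In endothelium Foxo1 is known as a brake on growth and metabolism, and Foxo1 and Foxo3 also act in T cells. Their activity is set largely by phosphorylation and location in the cell, which RNA levels do not show. Irs2 is an adaptor that couples the insulin and IGF1 receptors to PI3K, and its gene is itself activated by FOXO factors. Depp1 encodes a small protein named for its induction by progesterone in the decidua and is a FOXO target. Txnip encodes an alpha-arrestin that binds thioredoxin and restrains glucose uptake. Pdk4 encodes a kinase that switches off the pyruvate dehydrogenase complex, and Angptl4 a secreted inhibitor of lipoprotein lipase.

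In the mouse genome (build GRCm38, GENCODE annotation), Foxo1 lies on chromosome 3 from 52268336 to 52353221 on the plus strand and Txnip on the same chromosome and strand from 96557957 to 96561883. Depp1 lies on chromosome 6 from 116650609 to 116652794 on the plus strand, and Pdk4 on chromosome 6 from 5483351 to 5496309 on the minus strand. Irs2 lies on chromosome 8 from 10984681 to 11008458, Foxo3 on chromosome 10 from 42181841 to 42276755 and Angptl4 on chromosome 17 from 33773750 to 33781830, all on the minus strand. The 250 bases before the RefSeq start were at hand for 6 of the 7 genes, all but Angptl4, and were searched on both strands for 5 motifs. The promoters of Depp1, Txnip and Irs2 are shown because they held at least 1 of the motifs and because Depp1 and Txnip were the members with the most UMIs in endothelial cells. The sequences are RefSeq's (GRCm38.p6), 5′ to 3′ in the direction of the gene, from chr6:116650434-116650683 on the plus strand for Depp1, chr3:96557707-96557956 on the plus strand for Txnip and chr8:11008930-11009179 on the minus strand for Irs2. Capitals mark the motif matches. Distances count from the RefSeq start, which for Depp1 and Irs2 differs from the GENCODE gene boundary given above. For Depp1 part of the window lies inside the GENCODE gene.
Depp1: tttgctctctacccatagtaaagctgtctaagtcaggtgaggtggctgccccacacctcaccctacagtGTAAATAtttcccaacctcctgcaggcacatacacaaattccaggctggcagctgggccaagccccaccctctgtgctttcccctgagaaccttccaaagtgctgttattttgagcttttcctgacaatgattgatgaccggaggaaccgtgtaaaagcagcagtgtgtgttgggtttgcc
Txnip: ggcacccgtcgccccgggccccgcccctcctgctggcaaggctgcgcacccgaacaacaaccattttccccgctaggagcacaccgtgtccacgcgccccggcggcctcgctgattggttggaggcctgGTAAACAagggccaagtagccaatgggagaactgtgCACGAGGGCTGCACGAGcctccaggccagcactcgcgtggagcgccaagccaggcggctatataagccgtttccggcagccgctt
Irs2: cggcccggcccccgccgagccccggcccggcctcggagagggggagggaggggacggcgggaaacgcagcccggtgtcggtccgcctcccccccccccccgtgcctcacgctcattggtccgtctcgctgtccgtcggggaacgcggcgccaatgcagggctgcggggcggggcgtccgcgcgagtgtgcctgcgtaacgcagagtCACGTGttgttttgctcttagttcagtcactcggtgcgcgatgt
The Txnip promoter held the FOXO motif GTAAACA, 121 to 115 bases before the start, which 3.17% of the 32851 promoters of the same length held. It also held the carbohydrate response element, searched as CACGNG and CNCGNG with 5 bases between them, 85 to 69 bases before the start, a match found in 0.28% of promoters. The Depp1 promoter held the forkhead variant GTAAATA, 181 to 175 bases before the start (2.73% of promoters). The Irs2 promoter held the E-box CACGTG, 44 to 39 bases before the start (6.02% of promoters), a motif that can overlap the carbohydrate response element. The promoters of Foxo1, Foxo3 and Pdk4 held none of the 5 motifs. The glucocorticoid response element, searched as AGAACA and TGTTCT with 3 bases between them, was in none of the 6. This exact form was found in 0.00913% of all promoters, so its absence from 6 was all but certain beforehand and nothing is read from it. The matches that were found are letters in a window and do not show that a factor was bound.

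The libraries held 27297599 to 30361474 UMIs, where a UMI marks 1 captured RNA molecule. Barcodes were kept as cells if they held 500 or more UMIs and 250 or more genes, with a mitochondrial share of 25% or less, which left 2553 to 4934 cells per library and 14415 in all, with a median of 1408 to 2357 UMIs. CSD 2 stood apart, since 5208 of its barcodes were removed for mitochondrial UMIs against 1384 to 3839 in the other 3 libraries. Marker genes placed 13320 cells in 1 class, 746 showed markers of 2 classes and were left out as possible doublets, and 349 had no class. Of the cells, 476 lay near the limit of the gate, and pairs of libraries shared 0 to 9 cell barcodes. A level is given as CPM, the UMIs of a gene divided by all UMIs of the class in that library and multiplied by 1000000. In every library 12 classes and subclasses held at least 10 cells. Among them were arterial, capillary and venous EC, microglia, pericytes, arterial smooth muscle cells (SMC), astrocytes and choroid plexus. In all 12 the markers of the class itself (for subclasses, those of EC) had the highest median summed level. Cells were placed by these same markers, so that outcome was largely fixed by the gate and is no independent check.

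Among endothelial cells, Depp1, Txnip, Angptl4 and Foxo3 had higher levels in both CSD libraries than in both HC libraries. The ratios of mean CPM were 2.23, 1.43, 1.95 and 1.47 in that order. For Foxo3 CSD 1 lay close to HC 1, and Foxo1 was level. Of the 6 members that passed the filter on low counts in EC, 4 had both CSD libraries above both HC libraries, beside 14.7% of all genes tested. Since this contrast led to the choice of these genes, nothing is read from that count. With 2 libraries a side an exact permutation test cannot go below p = 0.33. Cells of the EC gate numbered 4880, from 913 to 1688 per library.

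**Figure D1:**
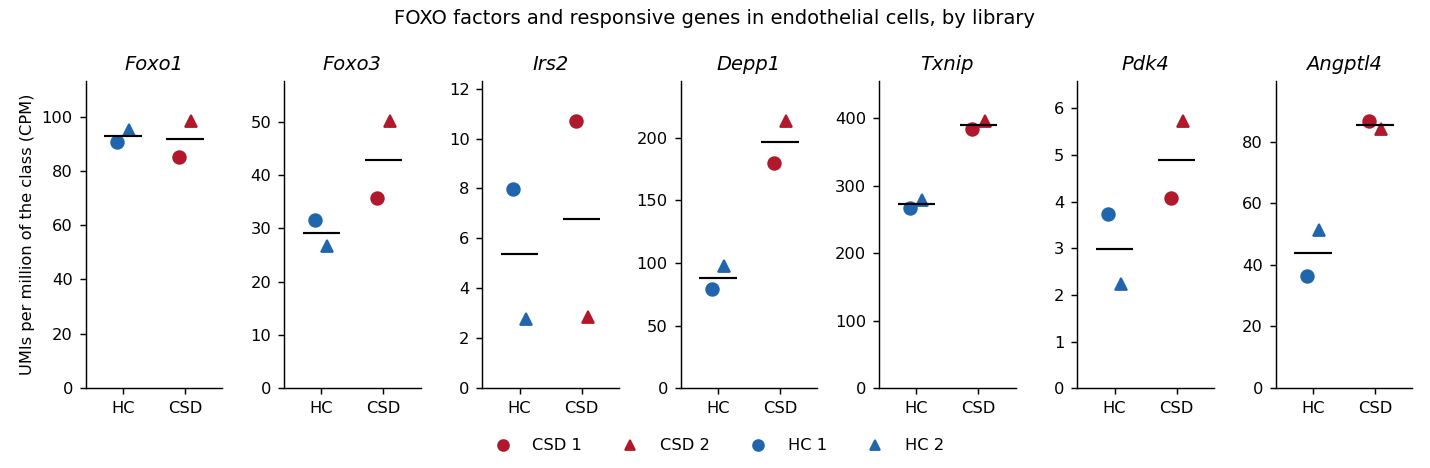
Level of each gene in endothelial cells (vertical axis, CPM, starting at 0, scaled for each gene) in the HC and CSD libraries, with 1 point per library and a bar at the mean of the 2 libraries. Depp1, Txnip and Angptl4 show a clear gap between HC and CSD, and Foxo3 a narrow one. Foxo1 and Irs2 overlap, and Pdk4 stays below 6 CPM.

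Foxo1 was measured at 85.1 CPM in CSD 1, 98.3 in CSD 2, 90.6 in HC 1 and 95.2 in HC 2 among EC. The CSD values lay on both sides of the HC values, and the difference was small. The log2 fold change was 0.04 ± 0.15 (SE, n = 2 libraries per condition). Here and below the SE of a log2 fold change is derived from the edgeR test statistic, not from the spread of that gene alone. Foxo3 was measured at 35.7 and 50.1 CPM in CSD 1 and CSD 2 and at 31.5 and 26.7 CPM in HC 1 and HC 2. Both CSD libraries were higher, with CSD 1 close to HC 1, and the log2 fold change of 0.62 ± 0.22 was 0.36 without CSD 2. RNA in barcodes with at most 100 UMIs, which measures free RNA in the suspension, held Foxo3 at 20.6 to 31.1 CPM and Foxo1 at 19.0 to 26.0 CPM. Foxo3 in EC of the HC libraries thus had a CPM near that of the free RNA, and Foxo1 a CPM well above it. Judged by Ttr, a choroid plexus transcript, free RNA made up 4.82%, 3.98%, 4.33% and 8.15% of the EC UMIs in CSD 1, CSD 2, HC 1 and HC 2. A level near that of the free RNA therefore does not measure how much of it was free RNA.

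Among the 11 classes and subclasses with at least 10 cells in every library, Foxo1 was highest in venous EC at 124 ± 47.6 CPM (SD, n = 4 libraries), followed by arterial EC (96.1 ± 30.4), astrocytes (89.1 ± 52.9), capillary EC (85.4 ± 12.8), T cells (83.9 ± 32.3) and ependymal cells (74.6 ± 21.2). These 6 classes could not be put in an order, since the libraries of each neighbouring pair overlapped. Pericytes (38.03 ± 18.4), fibroblasts (34.8 ± 22.7), microglia (28.3 ± 5.18) and arterial SMC (21.4 ± 1.18) followed, and choroid plexus was lowest at 14.9 ± 2.31 CPM, the only neighbour that lay apart in all libraries. Over the same 11 classes Foxo3 was spread more evenly, from 38.7 ± 27.5 CPM in fibroblasts to 15.9 ± 11.8 in T cells, with all neighbours overlapping, and 7.56 ± 0.96 in choroid plexus. The fibroblast value rested on 8 UMIs (31.5 CPM when the libraries were pooled) and the T cell value on 5. The ratio of the highest to the lowest class was 8.30 for Foxo1 and 5.11 for Foxo3.

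Outside EC the libraries of the 2 conditions overlapped in some classes and not in others. The share of all genes without overlap is given for EC only, so nothing is read from gaps in other classes. Microglial Foxo1 had a log2 fold change of -0.20 ± 0.23 and microglial Foxo3 one of 0.25 ± 0.23, with overlapping libraries for both. In choroid plexus the values were 0.09 ± 0.22 for Foxo1 and -0.10 ± 0.27 for Foxo3. Arterial SMC held Foxo3 at 35.7 and 58.1 CPM in the CSD libraries and at 33.8 and 5.14 CPM in the HC libraries, where HC 2 rested on 2 UMIs. The log2 fold change of 1.003 ± 0.49 was 0.42 without HC 2 and 3.09 without HC 1. Foxo1 in arterial SMC lay between 20.6 and 23.1 CPM in all 4 libraries. Pericytes, where Foxo1 did not pass the filter, held it at 64.8 and 34.1 CPM in CSD and at 23.3 and 29.9 CPM in HC, and ependymal cells, which were not tested, at 101 and 81.4 against 64.8 and 51.6 CPM. Astrocytes held Foxo1 at 151 and 97.8 CPM in CSD and at 85.5 and 22.02 CPM in HC, a log2 fold change of 1.204 ± 0.55, on 27, 37, 10 and 3 UMIs. It was 0.58 without HC 2 and 2.39 without HC 1. In the same astrocyte gate haemoglobin transcripts stood at 12487 and 13084 CPM in CSD against 188 and 7.34 CPM in HC, and the part of this gap in the astrocyte values was not tested.

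Irs2 was low in endothelium as a whole and highest in arterial SMC. Arterial SMC held 215 and 254 CPM in the CSD libraries and 220 and 223 CPM in the HC libraries, so that the groups overlapped closely (log2 fold change 0.07 ± 0.20). Arterial SMC were 3.16% of the cells and held 20.1% of the Irs2 UMIs. Fibroblasts (152 ± 58.3 CPM, n = 4), ependymal cells (95.3 ± 46.1) and choroid plexus (47.1 ± 5.72) followed, each overlapping the next. Choroid plexus cells, the deepest of all, held 50.1% of the Irs2 UMIs. Capillary EC were the lowest class with more than 3 UMIs, at 3.86 ± 2.53 CPM, and lay apart from the astrocytes above them (21.0 ± 6.74).

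In EC as a whole Irs2 was measured at 10.7 and 2.86 CPM in CSD 1 and CSD 2 and at 7.998 and 2.78 CPM in HC 1 and HC 2. The first library of each condition was higher than the second, and the free RNA ran the same way, at 43.0, 17.98, 38.5 and 28.2 CPM in the same order, above the EC level in every library. The log2 fold change of 0.37 ± 0.72 became -0.87 without CSD 1 and 1.34 without HC 1. Microglia (-0.15 ± 0.44) and choroid plexus (0.16 ± 0.18) overlapped between conditions as well. Arterial EC held more than the pooled EC, at 32.5 and 53.9 CPM in CSD against 26.9 and 8.20 CPM in HC, on 8, 4, 5 and 1 UMIs. In the same order of libraries, summed arterial SMC markers stood at 1805, 2547, 521 and 1689 CPM in arterial EC. In capillary EC they stood at 201, 117, 258 and 259 CPM. The part of SMC RNA in the arterial EC values of Irs2 was not tested. Irs2 libraries of CSD and HC thus overlapped in all 4 classes where it was tested.

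**Figure D2:**
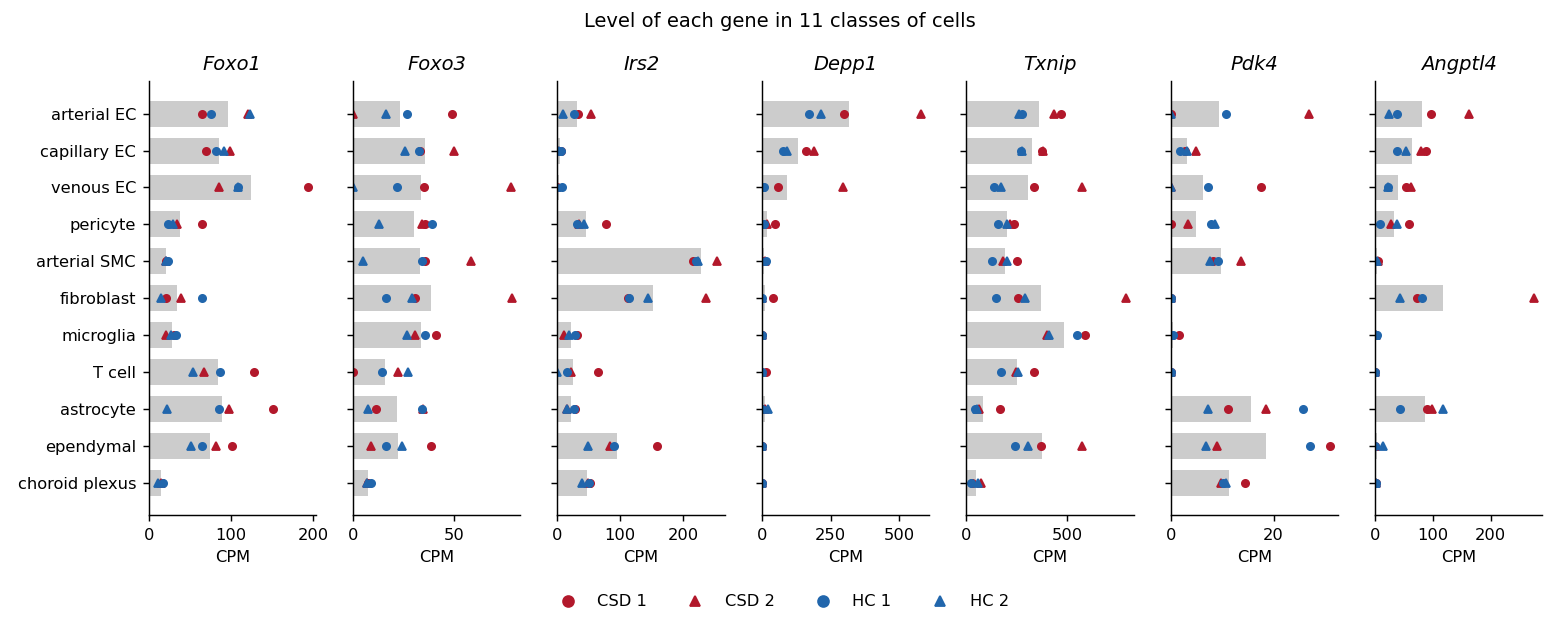
Level of each gene (horizontal axis, CPM, a separate scale per gene starting at 0) in 11 classes of cells, with grey bars for the mean of 4 libraries and points for the single libraries. Depp1 has its highest means in the 3 endothelial subclasses, and a mean of at most 17.98 CPM elsewhere. In venous EC its HC points lie at 7.25 and 0 CPM. Irs2 peaks in arterial SMC, and Txnip is lowest in choroid plexus.

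Of the 7 genes, Depp1 had the largest share of its UMIs in EC. EC made up 33.9% of the cells and held 71.6% of the Depp1 UMIs (1123 of 1568), and the barcodes with markers of 2 classes held a further 24.0%. Microglia, with 31.9% of the cells, held 5 UMIs. By subclass the level was 316 ± 183 CPM in arterial EC, 129.97 ± 53.3 in capillary EC and 90.6 ± 140 in venous EC (SD, n = 4), with overlapping libraries. Outside endothelium pericytes were highest at 17.98 ± 20.6 CPM, and keeping barcodes with markers of 2 classes raised that value to 89.0. No UMI was found in 203 ependymal cells, which allows a share of cells with a UMI of up to 1.48%.

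Depp1 also had the largest log2 fold change of the 6 members tested in EC. The level was 179.9 CPM in CSD 1 and 213 in CSD 2, against 78.9 in HC 1 and 97.4 in HC 2. The lower CSD library was above the higher HC library, and the log2 fold change was 1.22 ± 0.17, a fold of 2.33. Log2 fold changes and folds come from edgeR's fit, which rescales the libraries, so they differ somewhat from the ratios of mean CPM given earlier. Free RNA held 10.1 and 14.3 CPM in CSD and 3.65 and 6.99 CPM in HC, far below the levels in EC. The gap was present in each subclass, though the subclasses are parts of the same libraries and give no separate support. Arterial EC held 300.2 and 580 CPM in CSD against 172 and 213 CPM in HC, capillary EC 162 and 188 against 77.8 and 92.2, and venous EC 58.7 and 297 against 7.25 and 0 CPM, the last on 10, 38, 1 and 0 UMIs. The 2 HC libraries of venous EC rested on 26 and 23 cells, and the venous gate counted Lcn2, a gene that was called higher in CSD in EC, and its part in the venous values was not tested.

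The share of EC with a Depp1 UMI was 18.3% in CSD 1 (95% exact interval 16.1 to 20.6), 18.8% in CSD 2 (16.5 to 21.2), 10.95% in HC 1 (9.001 to 13.2) and 8.18% in HC 2 (6.91 to 9.59). The median depth of these cells was 1192, 1380, 1453 and 856.5 UMIs. After every cell was thinned to 500 UMIs, which left out none, the shares were 8.05%, 7.30%, 2.74% and 4.799%, still higher in both CSD libraries. Microglia, in which the gene was nearly undetected, had a share of at most 0.232%, at median depths of 1845 to 4751 UMIs. Intervals cover counting error only.

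In choroid plexus Depp1 was found at 1.42 and 1.32 CPM in CSD and at 0 and 0.32 CPM in HC. These values rest on 11, 3, 0 and 3 UMIs in cells of the greatest depth, and no fold is given. Arterial SMC (5.49 and 11.6 CPM in CSD, 13.8 and 0 in HC) overlapped between conditions. Pericytes held 47.1 and 17.1 CPM in CSD and 7.76 and 0 CPM in HC on 8, 5, 1 and 0 UMIs, while their summed EC markers reached 6117, 4053, 3687 and 4262 CPM, and the part of EC RNA in the pericyte values was not tested.

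Txnip was found in every class, and most of it outside endothelium. Of the 11 classes with at least 10 cells in every library, microglia had the highest level at 485 ± 96.1 CPM (SD, n = 4) and held 47.0% of its UMIs, ahead of ependymal cells (372 ± 143), fibroblasts (369.9 ± 285), arterial EC (359 ± 105), capillary EC (326 ± 60.2) and venous EC (304 ± 197). T cells (253 ± 66.0), pericytes (202 ± 34.1) and arterial SMC (190.2 ± 51.6) came next, and astrocytes (81.3 ± 58.2) and choroid plexus (45.5 ± 23.4) were the lowest of the 11. Every neighbouring pair overlapped, and free RNA stood at 79.7 to 99.4 CPM, as high as the astrocyte level.

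In EC Txnip was measured at 384 CPM in CSD 1 and 396 in CSD 2, against 267 in HC 1 and 279 in HC 2. The libraries of a condition differed by little and the conditions did not overlap, with a log2 fold change of 0.58 ± 0.14, a fold of 1.49. Capillary EC gave 377 and 379 CPM in CSD against 269.6 and 277 CPM in HC, arterial EC 466 and 431 against 274 and 262, and venous EC 334 and 569.6 against 138 and 173. The share of EC with a Txnip UMI, thinned to 500 UMIs per cell, was 17.1% and 17.8% in CSD and 12.3% and 13.8% in HC. Unthinned it was 38.1%, 40.7%, 34.2% and 23.7%.

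Microglia showed no such gap in Txnip. The level was 586 and 397 CPM in CSD 1 and CSD 2 and 549 and 409 CPM in HC 1 and HC 2, and the log2 fold change was 0.07 ± 0.29. In both conditions the first library was higher than the second. Choroid plexus (0.12 ± 0.37) and arterial SMC (0.43 ± 0.26) overlapped between conditions too. Pericytes had 235 and 215 CPM in CSD and 155 and 201 CPM in HC (0.32 ± 0.29), and ependymal cells, which were not tested, 368 and 573 against 243 and 306 CPM. Astrocytes had 168 and 63.5 CPM in CSD and 42.8 and 51.4 CPM in HC (1.18 ± 0.58), below the free RNA apart from CSD 1. Whether the difference in EC was larger than that in another class was not tested.

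**Figure D3:**
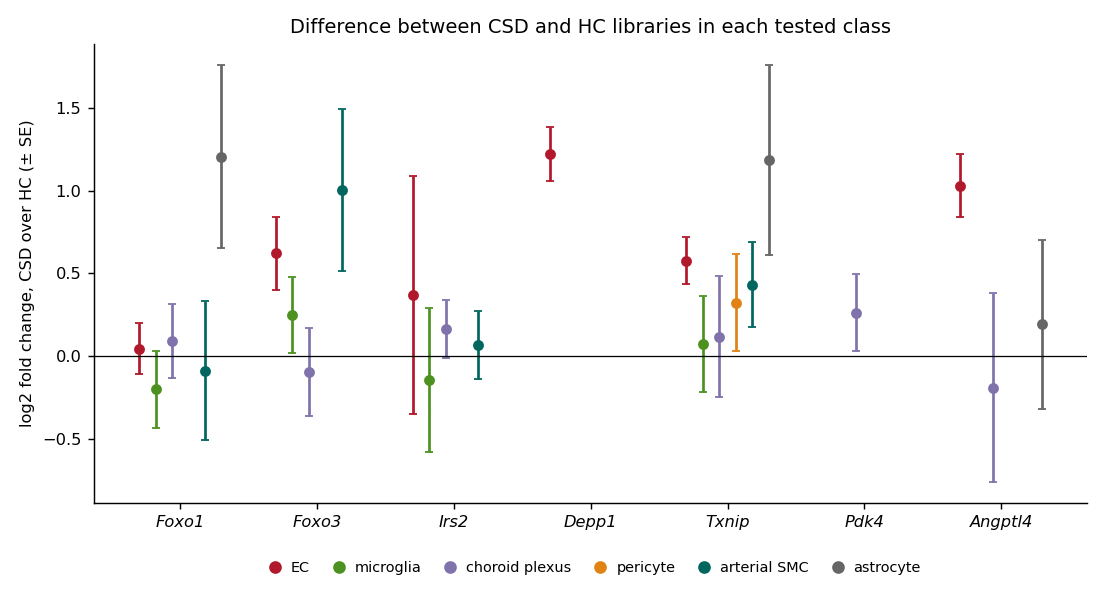
log2 fold change of CSD over HC (vertical axis, points) for each gene in the 6 tested classes. Bars show 1 SE, derived from edgeR's test statistic. Gene and class pairs are shown that passed the filter and had more than 3 UMIs in each condition. The EC points of Depp1, Angptl4, Foxo3 and Txnip lie at 1.22, 1.03, 0.62 and 0.58, while the EC point of Foxo1 lies at 0.04.

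Pdk4 was rare in all cells. Choroid plexus held 72.9% of its 439 UMIs at a level of 11.3 ± 2.17 CPM, with single libraries at 14.5, 9.71, 10.2 and 10.7 CPM in CSD 1, CSD 2, HC 1 and HC 2. The conditions overlapped (log2 fold change 0.26 ± 0.23). Ependymal cells (18.5 ± 12.3 CPM) and astrocytes (15.7 ± 8.11) had the highest means on 28 and 13 UMIs, and arterial SMC had 9.68 ± 2.66. EC held 4.08 and 5.73 CPM in CSD and 3.73 and 2.23 CPM in HC. Free RNA of 2.67 to 6.09 CPM covered most of that range, and with 8, 12, 7 and 4 UMIs Pdk4 did not pass the filter in EC. No Pdk4 UMI was found in 123 T cells or 85 fibroblasts, which allows shares of cells with a UMI of up to 2.44% and 3.53%.

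Angptl4 had its highest mean levels in fibroblasts, astrocytes and endothelium. Fibroblasts had 118 ± 106 CPM, astrocytes 86.9 ± 31.7, arterial EC 80.3 ± 62.8, capillary EC 64.6 ± 23.4, venous EC 39.6 ± 21.1 and pericytes 33.1 ± 21.4, with all neighbours overlapping. In ependymal cells, arterial SMC, microglia and choroid plexus the level was 3.44 CPM or less, and the T cells had no UMI. EC held 62.7% of the 807 UMIs. The fibroblast value rested on 22 UMIs, and with the libraries pooled it was 86.7 CPM, against 91.3 CPM in astrocytes.

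In EC Angptl4 was measured at 86.6 and 84.0 CPM in CSD 1 and CSD 2 and at 36.3 and 51.2 CPM in HC 1 and HC 2. The CSD libraries nearly coincided and lay above both HC libraries, with a log2 fold change of 1.03 ± 0.19, a fold of 2.04. Free RNA held 3.17 to 10.3 CPM. Capillary EC gave 88.4 and 79.1 CPM against 37.1 and 53.9, arterial EC 97.4 and 162 against 37.6 and 24.6, and venous EC 52.8 and 62.4 against 21.7 and 21.6 CPM. The arterial values rested on 24, 12, 7 and 3 UMIs in CSD 1, CSD 2, HC 1 and HC 2, and the venous values on 9, 8, 3 and 1. The share of EC with a UMI was 11.5% (95% exact interval 9.73 to 13.5) and 11.03% (9.26 to 13.01) in CSD and 5.70% (4.28 to 7.40) and 4.62% (3.67 to 5.73) in HC, and 4.42%, 4.27%, 2.08% and 2.25% after thinning. Microglia had a share of at most 0.744%.

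In most classes outside endothelium the Angptl4 libraries of the conditions overlapped. Astrocytes had 89.4 and 97.8 CPM in CSD and 42.8 and 117 CPM in HC (log2 fold change 0.19 ± 0.51), pericytes 58.9 and 27.3 against 7.76 and 38.5 CPM, and fibroblasts 71.8 and 276 against 81.1 and 43.5 CPM. In choroid plexus the log2 fold change was -0.19 ± 0.57 at 1.16 to 2.21 CPM. Arterial SMC held 3, 3, 0 and 1 UMIs, too few for a fold.

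**Figure D4:**
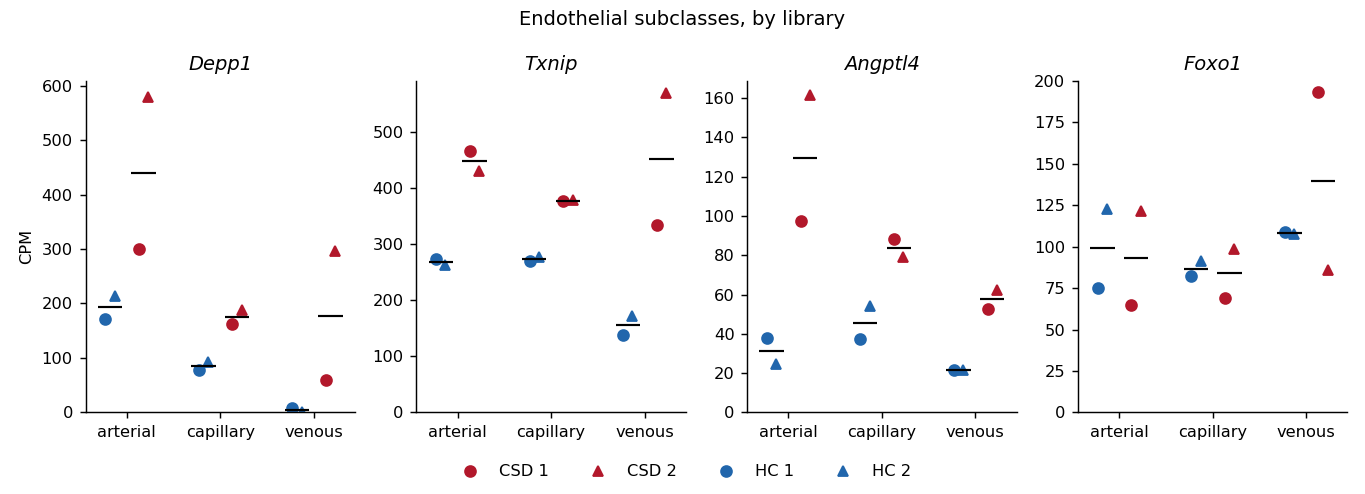
Levels of Depp1, Txnip, Angptl4 and Foxo1 (vertical axis, CPM, starting at 0) in arterial, capillary and venous EC, with 1 point per library (HC in blue, CSD in red) and bars at the means of the 2 libraries. In all 3 subclasses both CSD points of Depp1, Txnip and Angptl4 lie above both HC points, while those of Foxo1 overlap. Foxo3, not drawn, overlapped in arterial EC (48.7 and 0 CPM in CSD, 26.9 and 16.4 CPM in HC). The subclasses are parts of the same libraries, and the share of all genes with such a gap was not computed in them. In venous EC the points of HC 1 and HC 2 rest on 1 and 0 UMIs for Depp1 and on 3 and 1 UMIs for Angptl4.

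Other measures of the EC gate also moved with condition. Immediate-early and dissociation genes summed to 17451 and 20794 CPM in CSD against 13508 and 14250 CPM in HC. Of 15 marker lists of other classes, 3 were higher in both CSD libraries, those of oligodendrocytes, oligodendrocyte precursors and neutrophils, and that of choroid plexus was lower. The oligodendrocyte list summed to 1450.2 and 1187 CPM in CSD and to 831 and 825 CPM in HC, but Mal alone gave 1426, 1163, 808 and 798 CPM of that, and the other 7 markers were each at 16.8 CPM or less. Precursor markers summed to at most 28.0 CPM and neutrophil markers to at most 5.10 CPM. The share of mitochondrial UMIs overlapped, at 7.38% and 8.57% in CSD and 7.90% and 7.17% in HC. The part of the dissociation genes in the values of Depp1, Txnip and Angptl4 was not tested.

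Across the 11 classes without the pooled EC, the pattern of each gene was set beside those of 7254 genes that reached a mean of 50 CPM in a class, by Pearson's r of log2(mean CPM + 10). Depp1 was closest to Gm609 (r = 0.99), Myct1 (0.99) and Acer2 (0.98), all highest in arterial EC. Foxo1 was closest to Stmn1 (0.96), Kbtbd11 (0.90) and Babam2 (0.89), Foxo3 to Fosb (0.92), Rere (0.90) and Crebbp (0.90), and Txnip to Tgfbr2 (0.95), Snrpb2 (0.94) and Rbbp4 (0.93). Irs2 was closest to 1500009L16Rik (0.88), Hspa9 (0.88) and Ap4s1 (0.88), Angptl4 to Sel1l (0.94), Phactr1 (0.92) and Ncoa7 (0.92), and Pdk4 to Enpp5 (0.92), Ift57 (0.92) and mt-Nd6 (0.89). Among the members themselves the highest r was 0.69 for Foxo3 and Txnip, 0.64 for Depp1 and Angptl4 and 0.59 for Depp1 and Foxo1, and the lowest -0.62 for Foxo1 and Irs2. These are descriptions over 11 class means that share the same 4 libraries and differ in depth.

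Other genes of these pathways were followed in 8 lists, and none of their genes was called by edgeR in any of the 6 tested classes. In EC edgeR's quasi-likelihood test called 7 of 9999 genes at an adjusted p under 0.05 (0.07%), all of them higher in CSD. It called 542 without CSD 1, of which 349 were higher, and 290 without CSD 2, of which 219 were higher. It called 2 without HC 1, both higher, and 6 without HC 2, of which 2 were higher. With all 4 libraries, 23 of 30 FOXO-responsive genes other than the members were tested. Their median log2 fold change was 0.21, beside 0.0044 for all genes. At an unadjusted p under 0.05, 7 were higher in CSD and 1 lower, beside 5.33% and 2.6% of all genes (7.93% in both directions), and DESeq2, which called 0.62% of all genes, called 1, S1pr1. The 8 lists were chosen with earlier results of these data known, so these counts are a description. The genes named next were chosen after their values were seen. S1pr1, the receptor for sphingosine 1-phosphate that keeps endothelial junctions tight, was at 906 and 902 normalized CPM in CSD and at 587 and 585 CPM in HC (0.62 ± 0.15). Sesn1, a sestrin that restrains mTORC1, had a log2 fold change of 0.73 ± 0.17, Ccng2, a cyclin of resting cells, one of 0.79 ± 0.22, Bnip3, a mitophagy receptor, one of 0.55 ± 0.17 and Cdkn1b, the cell cycle inhibitor p27, one of 0.46 ± 0.15. Klf2 (0.57 ± 0.24) and Cited2 (0.36 ± 0.16) were the others on the higher side, and Tnfsf10, the death ligand TRAIL, was the one on the lower side (-0.39 ± 0.16). None of these passed the adjusted threshold.

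Upstream of FOXO, 24 of 26 genes of the insulin receptor, PI3K and AKT pathway were tested in EC, with a median log2 fold change of 0.13 and with 4 higher and 0 lower in CSD at an unadjusted p under 0.05. These were Insr, the insulin receptor (0.65 ± 0.19), Igf1r, the IGF1 receptor (0.50 ± 0.21), Sgk1, a kinase that phosphorylates FOXO factors (0.65 ± 0.15), and Rictor, a subunit of mTORC2 (0.57 ± 0.14). Akt1, a kinase that phosphorylates FOXO factors as well, had a log2 fold change of 0.15 ± 0.16. Of the FOXO partners 14 of 17 were tested (median 0.15), with only Sirt1, a deacetylase of FOXO factors, past the unadjusted threshold (0.52 ± 0.18). Foxo4 was at 7.60 to 13.5 normalized CPM (0.56 ± 0.35), and Foxo6 did not pass the filter.

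Among the genes that share a function with the targets, 10 of 11 genes of the pyruvate dehydrogenase complex, its other kinases and its phosphatases were tested in EC (median 0.13), and 0 passed the unadjusted threshold. Pdk1 had a log2 fold change of 0.31 ± 0.30, Pdk2 one of -0.43 ± 0.42 and Pdk3 one of 0.36 ± 0.42. Of 15 of 17 PPAR targets and genes of fatty acid oxidation and lipoprotein lipase (median -0.0032), Ucp2, a carrier of the mitochondrial inner membrane, was past it (0.70 ± 0.16). Lpl, the lipase that Angptl4 inhibits, was at 1.63 to 6.96 normalized CPM. Gpihbp1, which holds that lipase on endothelium, was at 47.1 CPM in CSD 1 but at 1.45 to 10.3 CPM in the other libraries. Of 9 of 12 genes of the thioredoxin system, alpha-arrestins and MondoA/ChREBP (median 0.06), Slc2a1, the glucose transporter of the blood-brain barrier, was past it (0.75 ± 0.16), and DESeq2 called it. It was at 4626 and 4827 normalized CPM in CSD and at 2899 and 2714 CPM in HC. Txn1, the thioredoxin that Txnip binds, had a log2 fold change of -0.16 ± 0.15.

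Glucocorticoid-responsive genes and dissociation genes made up the last 2 lists. Of the 12 glucocorticoid genes 11 were tested in EC (median 0.77), and 9 were higher and 0 lower in CSD at an unadjusted p under 0.05. Fkbp5, a co-chaperone of the glucocorticoid receptor, had a log2 fold change of 1.55 ± 0.25 and Tsc22d3 one of 0.75 ± 0.15. DESeq2 called Tsc22d3, Ddit4 and Nfkbia. All 16 immediate-early and dissociation genes were tested (median 0.59), with 12 higher and 0 lower, and DESeq2 called Fosb, Zfp36, Dusp1 and Hspa1a. Hspa1a and its near-identical copy Hspa1b can share reads, so their split is uncertain. The median of the FOXO-responsive list lay below both of these medians, and the difference between lists was not tested.

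**Figure D5:**
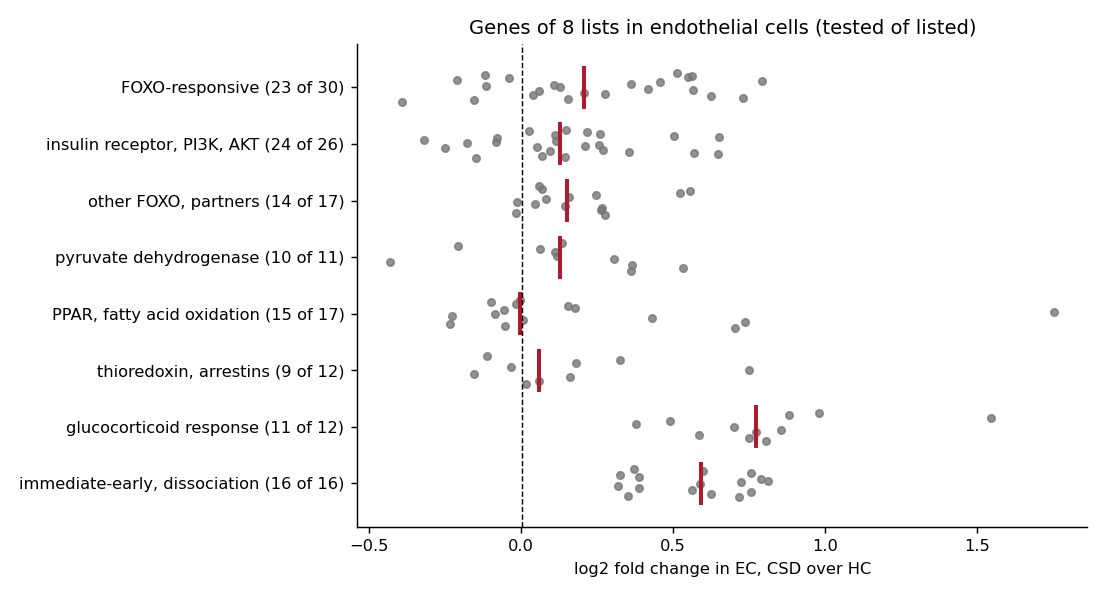
log2 fold change of CSD over HC in EC (horizontal axis) for the tested genes of 8 lists (rows, with the numbers tested and listed), with 1 grey point per gene, a red bar at the list's median and a dashed line at the median of all 9999 genes. The FOXO-responsive list has its median at 0.21, the glucocorticoid list at 0.77 and the dissociation list at 0.59.

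In the other tested classes the FOXO-responsive list had medians of 0.07 in microglia (24 tested), -0.04 in choroid plexus (21), 0.27 in pericytes (11), 0.08 in arterial SMC (20) and 0.34 in astrocytes (9), against medians of all genes between -0.0021 and 0.023. At an unadjusted p under 0.05 only S1pr1 in choroid plexus was higher among them. Its level there was low and its libraries overlapped, at 8.18 and 3.13 normalized CPM in CSD and 0.93 and 3.98 CPM in HC. The shares of all genes past that threshold were 1.27%, 3.37%, 3.79%, 3.0% and 2.27% in the same order. At an adjusted p under 0.05 edgeR and DESeq2 both called 0 genes of the list in these classes, beside 0.0%, 0.0173%, 0.0%, 0.0% and 0.227% of all genes by edgeR and 0.00999%, 0.0432%, 0.0%, 0.0% and 0.189% by DESeq2. The members that passed the filter on low counts numbered 4, 7, 1, 4 and 3 of 7.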

How the data were processed

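The authors deposited, for each of 4 libraries (10x Genomics 3' kit, version 3.1), whole UMI counts for every gene in every barcode, without cell calling or normalization. The submitters' processing notes name Cell Ranger 4.0 and the builds GRCm38 and mm10, and the matrix header names version 3.1.0. All columns belonged to these libraries.

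A cell's score for a class was its share of UMIs in the class's markers divided by the median share in clear cells of that class. A cell joined the class of its highest score if that was at least 0.2, at least 3 markers were found and no second score exceeded 0.5 of it. No doublet caller was run. Counts were summed per library and class and compared with edgeR 4.0.16 in R 4.3.3 (filterByExpr filter, TMM scaling and the two-sided quasi-likelihood test of glmQLFit and glmQLFTest). P-values were adjusted after Benjamini and Hochberg over the genes tested in each class, and genes under 0.05 were called. The test recovered changes of known size among well-counted genes in counts simulated from EC, with the same spread given to every gene. That setting does not cover the other classes or the real spread between pools. DESeq2 1.42.0 was an alternative. Each library pooled 4 mice, so p-values rest on the spread between pools, not between mice. With 2 libraries per condition that spread is estimated with information shared across genes, so it is not each gene's own. The SE of a log2 fold change was its size divided by the square root of the F statistic of the quasi-likelihood test.

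The genes to be named were the 7 members, list genes that were called and the 3 genes most like each member. No list gene was called, so the list genes in the text were chosen after their values were seen. The members and lists were chosen with earlier results of these data known. Other alternatives were no filter on low counts, 1000 UMIs per cell, a complexity filter, cells with markers of 2 classes, free RNA subtracted, a replicate block, leaving out each library and, chosen after the data were seen, a mitochondrial limit of 10%.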

Additional observations from a re-analysis of the deposited data

Results flagged for a closer look

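Barcodes over the mitochondrial limit entered no comparison. Depp1 and Angptl4 are described in them because both CSD libraries lay above both HC libraries there, so that direction was fixed by the choice. Of these barcodes, 68 in CSD 1, 105 in CSD 2, 38 in HC 1 and 146 in HC 2 passed the EC gate. Depp1 had 6, 8, 0 and 1 UMIs there, which is 123 and 99.3 CPM of the non-mitochondrial UMIs in CSD and 0 and 11.5 CPM in HC. Angptl4 had 4, 8, 0 and 1 UMIs, which is 82.0 and 99.3 CPM in CSD and 0 and 11.5 CPM in HC. Txnip, at 205 and 286 CPM in CSD and 247 and 230.1 CPM in HC, and Foxo1 overlapped between conditions in the same barcodes. These differences were not tested, and the share of all genes with such a gap in these barcodes was not computed. The HC values of Depp1 and Angptl4 rest on 0 and 1 UMIs, and the barcodes come from the same libraries as the cells.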

How the results depend on the processing

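The log2 fold changes of Depp1 (1.09 to 1.36), Angptl4 (0.81 to 1.28), Txnip (0.53 to 0.69) and Foxo3 (0.36 to 0.82) in EC stayed above 0 in all 12 alternatives run. Foxo1 lay between -0.06 and 0.12 and Irs2 between -0.87 and 1.34, which are also their ranges when 1 library at a time was left out. These genes were chosen on the same contrast, so their direction is a description and calls of single members are not given. Fits that leave out 1 library assume that the lone library varies like the other condition.

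Counts of called genes were less stable, and the cause was not tested. With 1 library left out, genes called ranged from 2 to 542 in EC, 0 to 58 in choroid plexus, 3 to 40 in pericytes, 5 to 34 in arterial SMC and 0 to 15 in astrocytes, and stayed at 0 in microglia. List genes called ranged from 0 to 31, 0 to 7, 0 to 4 and 0 to 3 in the first 4 of these. DESeq2 called 62 genes in EC, 9 of them in the lists, 1 in microglia, also in a list, and 5 in choroid plexus. Without the filter on low counts 28 genes were called in microglia (3 in the lists), 47 in choroid plexus (3), 6 in pericytes and 10 in arterial SMC (1). In choroid plexus 6 genes were called at 1000 UMIs per cell, 8 with the complexity filter (1 in the lists) and 4 at the mitochondrial limit of 10%. In astrocytes 2 were called with the complexity filter, 16 with cells of 2 classes kept and 0 at the mitochondrial limit of 10%.

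By their labels, libraries of CSD and HC share only a number, and whether equal numbers shared a day or batch is not stated. With 2 pairs, the correlation of the replicate differences was 0.50 in microglia and 0.02 to 0.13 in the other tested classes. With the replicate block, 140 genes were called in EC (13 in the lists), 16 in microglia (3), 1 in choroid plexus and 4 in pericytes. Of the 377 other recomputed levels of members, 373 moved by less than the spread between libraries. Pdk4 could not be compared in EC at this depth, since its UMIs did not pass the filter.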

Other observations

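Classes with fewer than 10 cells in a library entered no comparison, and their members' levels are pooled over the 4 libraries, with no error. Border-associated macrophages (67 cells) held Txnip at 764 CPM on 118 UMIs, and the 13 neutrophils held it at 816 CPM on 14 UMIs. Oligodendrocyte precursors, with 76 cells, held Txnip at 8.16 CPM on 2 UMIs, below the free RNA in every library. B cells (30 cells) held Foxo1 at 170.5 CPM on 7 UMIs and Irs2 at 146 CPM on 6 UMIs. Depp1 had no UMI in any of these 4 classes.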
